A study of Triticum aestivum with 14 samples.

Results

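Chromatin regions called accessible in leaf only after vernalization and in shoot apex only before it were described here in winter wheat cultivar AK58. They were found by merging the accessible chromatin regions (ACRs) of 6 lists wherever they overlapped by at least 1 bp, which gave 289328 consensus regions. A consensus region was kept when an ACR was called in vernalized leaf and in unvernalized shoot apex, and none was called in unvernalized leaf or vernalized shoot apex. The axillary bud lists were left free. This gave 4244 regions, called gained-lost regions below, or 1.47% of all consensus regions. The calls in the leaf and shoot apex lists chose these regions, so their state in those 4 lists is a description and not a result. A missing call is not a measured closing, and a new call is not a measured opening. The paper instead called differential ACRs from counts of Tn5 insertions, so its numbers rest on another measure.

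The study profiled leaf, axillary bud and shoot apex of hexaploid bread wheat (sub-genomes A, B and D) with ATAC-seq, an assay whose Tn5 transposase places adapters in open DNA. The 3 unvernalized groups were sampled from plants that had grown for 2 weeks after germination. The 3 vernalized groups were sampled after 1 month in a cold chamber at 4°C followed by 1 day in the greenhouse, so cold and plant age cannot be told apart. AK58 was the source of all 6 groups, and the labels name no transgene or mutation. The labels describe 2 samples for each of these groups, but 1 list of ACRs was analysed for each, so there was no replicate spread, no test was possible and no p-value is given. The labels also describe 2 input samples, which were not analysed here. A list holds positions only, with no read count, so sequencing depth could not be read from it and its part in any difference between lists was not tested. An ACR comes from many nuclei, so a region open in fewer cells and a region less open in each cell cannot be told apart.

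Vernalization is the long cold exposure that winter wheat requires before it can flower. The leaf senses day length and makes florigen, a mobile protein that travels to the shoot apex, and the shoot apex carries the meristem that turns from leaf formation to spike formation. Axillary buds lie at leaf bases, carry meristems of their own and can grow into tillers. An ACR marks DNA that is not tightly packed by nucleosomes, as is typical of promoters and of distal elements to which transcription factors bind.

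The number of gained-lost regions was set beside the calls of each tissue. Of all consensus regions, 18.7% were gained in leaf (called in the vernalized list only) and 11.4% were lost in shoot apex (called in the unvernalized list only). Gained-lost regions thus made up a minor part of the 54143 regions gained in leaf and of the 32925 regions lost in shoot apex. The opposite class, which leaf lost and shoot apex gained, held 9180 regions, or 3.17% of all consensus regions. Of the gained-lost regions, 2570 were called in vernalized leaf and unvernalized shoot apex and in no other list. Among the 15 pairs of lists, this pair ranked 6 by the number of regions called in exactly that pair. The pairs made of the lists of one tissue ranked 1 for axillary bud, with 12699 regions, 2 for leaf, with 6009 regions, and 10 for shoot apex, with 1214 regions. Vernalized leaf and unvernalized shoot apex therefore shared more regions held by no other list than the 2 shoot apex lists did. This does not mean that the 2 shoot apex lists shared little. Of the 17552 regions called in both of them and no leaf list, 93.1% had a bud ACR and so were not counted.

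The axillary bud lists were not used to choose the gained-lost regions, although bud ACRs took part in the merging and alone joined the leaf and shoot apex ACRs in 114 of them. Neither bud list had an ACR in 2570 of the 4244 regions, or 60.6% (95% Wilson interval 59.1% to 62.0%), against 32.2% of all consensus regions. Both bud lists had an ACR in 805 regions, or 19.0% (17.8% to 20.2%), against 44.03% of all consensus regions. The unvernalized bud list alone had an ACR in 405 regions, or 9.54% (8.70% to 10.5%), against 13.7%. The vernalized bud list alone had one in 464 regions, or 10.9% (10.03% to 11.9%), against 10.02%. Counted by list, 28.5% of gained-lost regions had an unvernalized bud ACR and 29.9% a vernalized one, against 57.7% and 54.05% of all consensus regions. Most gained-lost regions thus had no bud ACR, though with ACRs of at least 500 bp the majority turned over and 58.2% had one. A call in the vernalized bud alone was about as common as among all regions, and the other bud calls were less common. These intervals cover counting error only, and neighbouring regions are not independent.

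All consensus regions include many that were called in a single list, so the gained-lost regions were also set beside the other 5 classes of regions called in exactly 2 of the 4 leaf and shoot apex lists. The share with no bud ACR was 4.81% (4.40% to 5.27%) in the opposite class. It was 6.92% in regions called in both shoot apex lists and no leaf list. It was 17.9% in regions lost in both tissues and 21.6% in regions gained in both. Regions called in both leaf lists and no shoot apex list were the nearest to the gained-lost regions, with 55.5% lacking a bud ACR. On each of the 21 chromosomes the share was higher in gained-lost regions, with a range of 51.7% on 5D to 67.1% on 1A, than in the opposite class, with a range of 3.15% to 7.37%. The size of these differences depended on how lists were built. With lists of equal size the opposite class had 12.3% and gained-lost regions 66.5%, and with the central 200 bp of each ACR they had 21.2% and 64.8%. In these settings regions called only in the shoot apex lists had 14.1% and 23.0%. Regions lost in both tissues had 22.7% and 43.3%, and regions gained in both had 30.1% and 40.3%. The order of the highest 2 classes depended on ACR width. Among ACRs of at least 500 bp, 41.8% of gained-lost regions and 47.7% of regions called only in the leaf lists lacked a bud ACR.

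**Figure D1:**
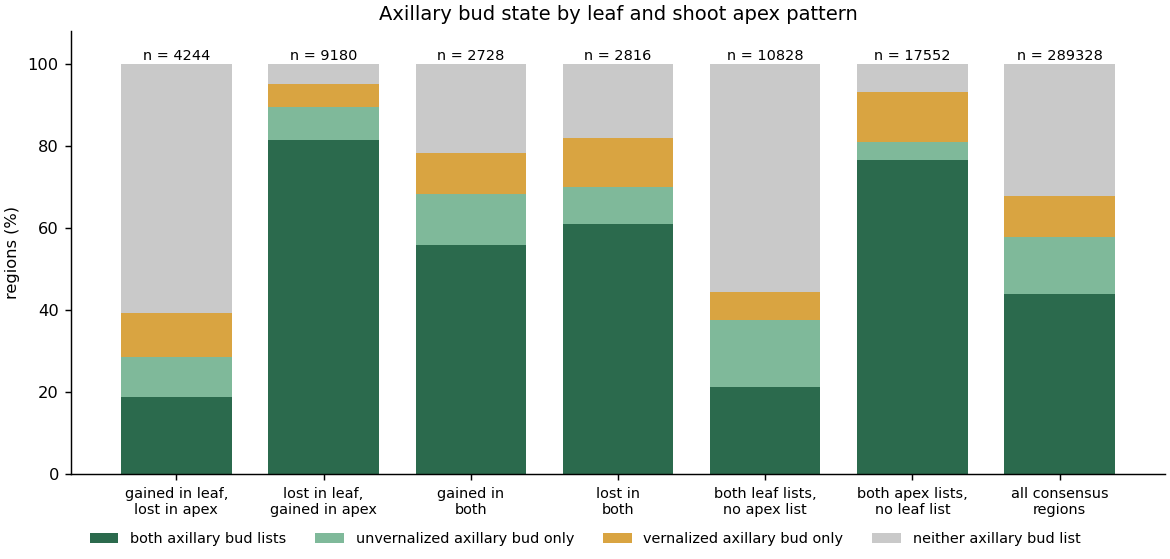
Share of regions (percent, stacked bars) in each axillary bud state, for the 6 classes called in exactly 2 of the 4 leaf and shoot apex lists and for all consensus regions, with the number of regions above each bar. Neither bud list had an ACR in 60.6% of gained-lost regions, against 4.81% of the opposite class.

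Regions with an ACR in vernalized leaf and in unvernalized shoot apex were then ordered by the remaining leaf and shoot apex calls. With no further call, which defines the gained-lost regions, 39.4% had an ACR in at least 1 bud list. With an unvernalized leaf ACR added, this was 75.1% of 3567 regions. With a vernalized shoot apex ACR added in its place, it was 94.3% of 3675 regions, and with both added it was 99.7% of 36907 regions. A vernalized shoot apex ACR therefore went with a bud ACR more often than an unvernalized leaf ACR did.

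In the bud itself the gained-lost regions showed no strong lean in direction. Of the 869 regions called in only 1 bud list, 53.4% (50.1% to 56.7%) were gained with vernalization, as in leaf, and the rest were lost, as in shoot apex. The gained share was 42.2% among all consensus regions, 40.3% (38.6% to 42.0%) among the other regions gained in leaf and 58.8% (57.5% to 60.1%) among the other regions lost in shoot apex. The gained-lost regions lay between these values. Of the 1210 gained-lost regions with an unvernalized bud ACR, 66.5% (63.8% to 69.1%) kept it after vernalization, against 76.2% of all consensus regions with an unvernalized bud ACR and 91.2% (90.6% to 91.8%) in the opposite class. A low kept share was not particular to them. It was 44.4% in leaf gains with no shoot apex call, 56.6% in regions called only in the leaf lists and 68.0% in shoot apex losses with no leaf call. Higher values were 82.1% in regions gained in both tissues, 87.0% in those lost in both and 94.6% in those called only in the shoot apex lists. They were 84.0% in shoot apex losses called in both leaf lists and 95.9% in leaf gains called in both shoot apex lists.

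A wide ACR offers more bases for another to overlap, so the bud share was compared within width classes. Of gained-lost regions with over 200 and up to 300 bp covered in vernalized leaf, 38.1% (35.4% to 40.8%) had a bud ACR, against 13.5% (13.1% to 14.0%) of the other regions gained in leaf. In those with over 700 bp the shares were 44.8% (41.4% to 48.2%) and 35.1% (33.6% to 36.6%). Against the other regions lost in shoot apex, the share was lower in gained-lost regions in each width class, with overlapping intervals in the narrowest. With over 200 and up to 300 bp covered in unvernalized shoot apex the shares were 32.2% (30.1% to 34.5%) in gained-lost regions and 33.6% (32.8% to 34.3%) in the others. With over 700 bp they were 61.3% (57.1% to 65.4%) and 75.4% (73.5% to 77.2%). The gained-lost regions thus shared ACRs with the bud more often than the other leaf gains of like width pooled. They did so less often than the other shoot apex losses of over 300 bp pooled. These pools mixed unlike classes, given here at any width, where gained-lost regions had 39.4%. Leaf gains had 7.81% with no shoot apex call, 78.4% with a vernalized one only and 94.3% with both. Shoot apex losses had 33.3% with no leaf call, 82.1% with an unvernalized one only and 75.1% with both.

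The width of the gained-lost regions in each list was described next, with no test since the rule used these calls. In vernalized leaf the 4244 regions held 4329 ACRs with a median width of 409 bp (quartiles 250 and 613 bp). The other regions gained in leaf had a median ACR width of 310 bp, and vernalized leaf ACRs in regions called in both leaf lists had 533 bp. In unvernalized shoot apex the regions held 4423 ACRs with a median width of 330 bp (quartiles 249 and 490 bp), against 285 bp for the other regions lost in shoot apex and 546 bp where both shoot apex lists had a call. Gained-lost ACRs were therefore wider than other gains or losses and narrower than ACRs called under both conditions. The rule asked for an ACR of the other tissue in the same region, and a wide ACR offers more bases for that. Most of the other gains and losses had no such ACR. The part of this in the widths was not tested. The widest single ACR measured 3416 bp in vernalized leaf and 2572 bp in shoot apex.

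Where the bud had an ACR, it was narrower than usual for that list. The 1258 unvernalized bud ACRs in gained-lost regions had a median width of 450 bp, against 650 bp over the whole list. The 1340 vernalized bud ACRs had a median of 350 bp, against 550 bp. ACR ends also fell differently between lists. The authors built ACRs from 150 bp bins in steps of 100 bp. A width that fits whole bins was found in 45.2% of gained-lost ACRs in vernalized leaf (42.6% over the list) and in 12.9% in unvernalized shoot apex (12.9% over the list). In the lists with no call by the rule, it was found in 33.9% of unvernalized leaf ACRs and 77.6% of vernalized shoot apex ACRs. In the bud lists it was found in 94.6% of unvernalized and 95.6% of vernalized ACRs. By this measure vernalized shoot apex was the list most like the bud lists. The part of these list differences in the calls and in the bud shares was not tested.

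**Figure D2:**
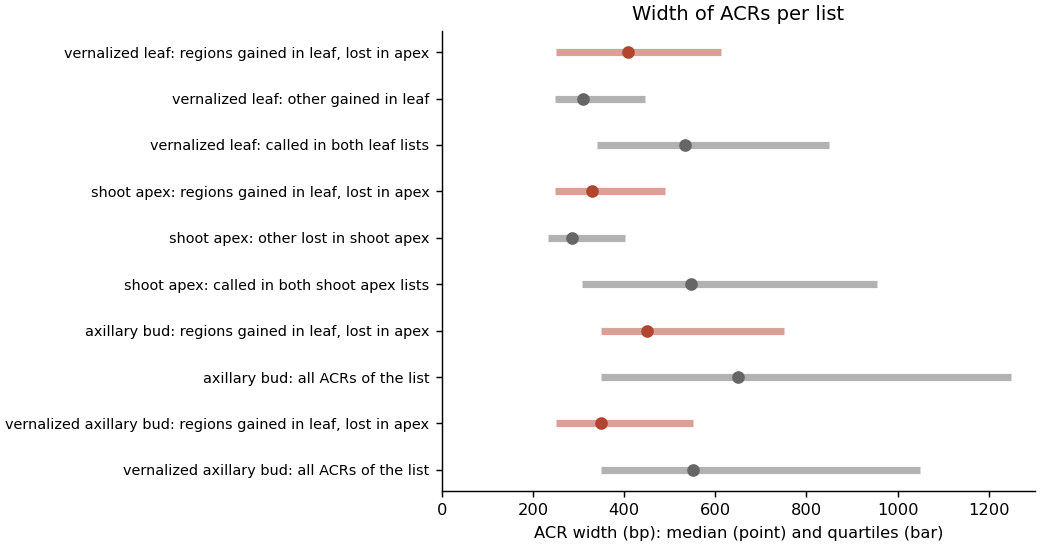
Width of ACRs in bp (point, median; bar, quartiles) in the 4 lists that have ACRs in gained-lost regions (red) and in comparison sets of the same list (grey). Gained-lost ACRs had a median of 409 bp in vernalized leaf and 330 bp in unvernalized shoot apex.

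The overlap of the leaf and shoot apex ACRs within each region was measured. In 4130 regions (97.3%) the vernalized leaf ACR and the unvernalized shoot apex ACR shared at least 1 bp, with a median of 240.5 bp (quartiles 179 and 341 bp). In the other 114 regions they were joined only through a bud ACR. The merging largely fixed this split, since in a region with no bud ACR the leaf and shoot apex ACRs had to overlap. A reciprocal overlap of 50% was found in 2049 regions (48.3%). The shared stretch made up a median of 60.3% of the vernalized leaf ACR and 71.6% of the shoot apex ACR. In 3998 regions with a single ACR in each of the lists, their midpoints lay a median of 123 bp apart. The covered length was greater in vernalized leaf in 2513 regions (59.2%) and greater in shoot apex in 1674 (39.4%). The widths were only weakly related across regions (Spearman rho = 0.16, n = 4244 regions that share their lists, given as a description). A wide ACR in leaf thus did not as a rule go with a wide one in shoot apex.

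How close the regions lay to failing the rule was also measured. The nearest unvernalized leaf ACR lay a median of 3.94 kb away and the nearest vernalized shoot apex ACR 2.90 kb away. In 220 regions (5.18%) one of these lay within 200 bp, and in 1422 (33.5%) within 1 kb, which left 2822 regions with neither within 1 kb. The 220 regions just inside the rule had median covered lengths of 368.5 bp in vernalized leaf and 352.5 bp in shoot apex. Just outside it, 14 of the 3567 regions that failed only by an unvernalized leaf ACR held one that shared at most 50 bp with the other lists. The same was true of 13 of the 3675 regions that failed only by a vernalized shoot apex ACR. The share with no bud ACR was 53.7% in regions with such an ACR within 1 kb and 64.0% in the others.

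The surroundings of the gained-lost regions were compared between lists, with ACRs of the region itself left out. Within 10 kb there were on average 1.58 unvernalized and 1.79 vernalized leaf ACRs, 2.06 and 2.16 bud ACRs, and 2.12 and 1.88 shoot apex ACRs. The vernalized value was thus 12.99% above the unvernalized one in leaf and 4.41% above it in axillary bud, while in shoot apex the change was -11.5%. Around all consensus regions leaf changed by -6.70%, axillary bud by -0.520% and shoot apex by 6.66%, so leaf and shoot apex had the other sign. Around the opposite class it was -21.1% in leaf and 27.0% in shoot apex. The signs seen around gained-lost regions were also found in a class close to them, regions lost in shoot apex and called in both leaf lists, with 9.59% in leaf and -21.9% in shoot apex. Each sign was found in a parent class too, with 28.0% in leaf around all regions gained in leaf and -10.9% in shoot apex around all regions lost there. Leaving out the first 1 kb, where pieces of the same peak may lie, gave 7.64% in leaf and -9.90% in shoot apex for the gained-lost regions. Leaf was higher after vernalization on 20 of the 21 chromosomes and shoot apex lower on 17. Neighbouring ACRs of the same 2 tissues are not independent of the calls that chose the regions, so this is a description.

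**Figure D3:**
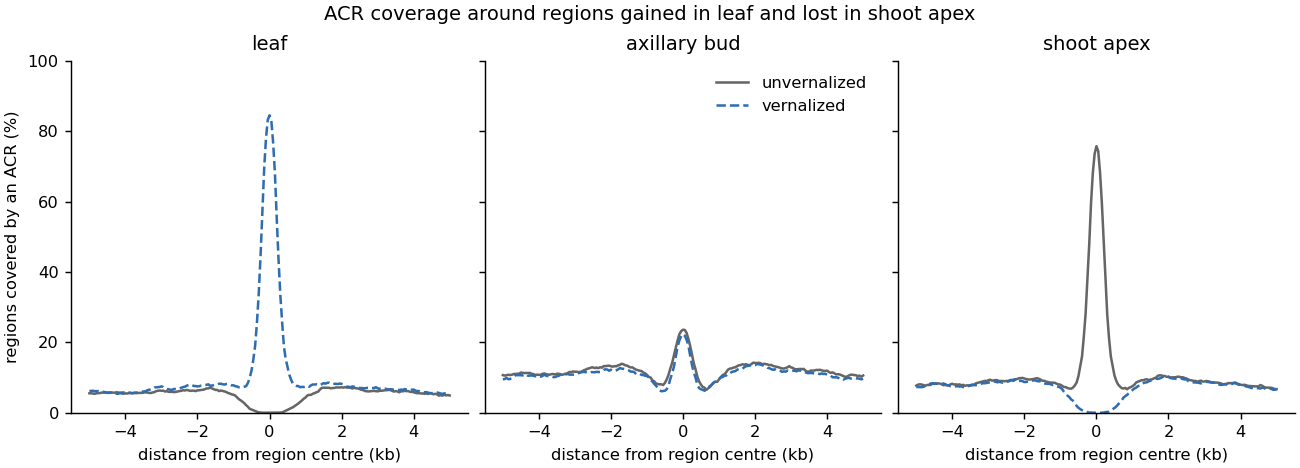
Share of the 4244 gained-lost regions (percent) covered by an ACR at each distance from the region centre (kb, 50 bp steps), for unvernalized (solid) and vernalized (dashed) lists of leaf, axillary bud and shoot apex. At the centre 84.6% were covered in vernalized leaf, 75.8% in shoot apex, 23.6% in axillary bud and 22.3% in vernalized axillary bud, and the absence of leaf and vernalized shoot apex ACRs there follows from the rule.

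Position along the chromosomes was not used by the rule. Each chromosome was cut into 10 equal bins up to its last ACR in any list. The first and the last bin together held 47.6% (46.1% to 49.1%) of gained-lost regions, against 38.0% of all consensus regions, 30.4% (30.0% to 30.8%) of the other regions gained in leaf and 24.7% (23.9% to 25.6%) of the opposite class. Among the other regions lost in shoot apex this was 54.1% (53.5% to 54.6%), above the gained-lost regions. Of the other classes with exactly 2 calls, regions called only in the shoot apex lists had 56.5%, and those lost in both tissues 43.5%, gained in both 29.3% and called only in the leaf lists 30.7%. On 19 of the 21 chromosomes the outer share of gained-lost regions was above that of all consensus regions, the exceptions being 1A and 6A. It was above that of the opposite class on all 21. Gained-lost regions were therefore more distal than the other leaf gains pooled and less distal than the other shoot apex losses pooled. The classes within these pools differed. Leaf gains had 28.8% with no shoot apex call but 49.3% (47.6% to 50.9%) when called in both shoot apex lists. Shoot apex losses had 57.4% with no leaf call but 41.7% (40.1% to 43.3%) when called in both leaf lists. The order thus did not hold against each class.

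The last bin held 28.6% of gained-lost regions (27.2% to 29.9%) and the first 19.1% (17.9% to 20.3%). A low second peak lay in bin 5, with 8.03% (7.25% to 8.89%), against 6.32% of all consensus regions. This peak was not particular to them. Bin 5 held 11.99% of the other leaf gains and 10.2% of shoot apex losses called in both leaf lists, but 4.83% of all other shoot apex losses. Bins 2 and 7 held 5.42% and 4.85%, below the 7.98% and 7.68% of all consensus regions. Outer position also differed with the bud state. The outer bins held 52.3% (50.4% to 54.2%) of gained-lost regions with no bud ACR and 53.0% (48.5% to 57.5%) of those with a vernalized bud ACR only. They held 38.0% (34.7% to 41.4%) of regions called in both bud lists and 30.9% (26.6% to 35.5%) of those called only in the unvernalized bud. Regions with an unvernalized bud ACR were thus the less distal ones.

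**Figure D4:**
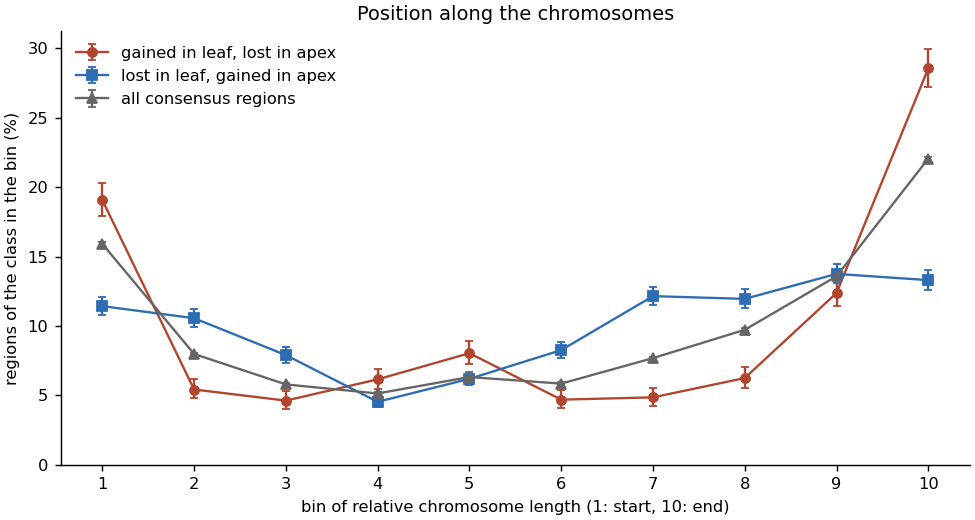
Share of regions (percent, with 95% Wilson intervals) in each of 10 bins of relative chromosome length, for gained-lost regions, the opposite class and all consensus regions. The outer bins held 47.6%, 24.7% and 38.0% of these classes in that order.

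The sub-genomes carried similar shares. Sub-genome A held 30.7% of the gained-lost regions (29.4% to 32.2%), B held 35.0% (33.6% to 36.5%) and D held 34.2% (32.8% to 35.7%). For all consensus regions these shares were 32.7%, 32.7% and 34.6%, so B was above and A below while the interval for D included its share. The other regions gained in leaf differed from this, with 37.3% (36.9% to 37.7%) on D. The lean to B was not particular to gained-lost regions. Sub-genome B held 33.9% (33.4% to 34.5%) of the other shoot apex losses. Among shoot apex losses called in both leaf lists it held 35.0% (33.4% to 36.6%). Gained-lost regions made up 1.38% of the consensus regions of A, 1.57% of those of B and 1.45% of those of D. Per length they were densest on D, with 0.368 regions per Mb, against 0.287 on B and 0.264 on A. The B value includes 1B, which had the lowest density of all chromosomes, 0.188 per Mb. Regions with no bud ACR lay on B in 36.8% of cases, and those in both bud lists in 33.0%.

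Across chromosomes the number ranged from 130 on 1B to 257 on 2B. As a share of consensus regions the lowest value was 1.21% on 1A and the highest 1.76% on 6B. Within the 7 homoeologous groups, that is the sets of related A, B and D chromosomes, the B member had the highest share in groups 2, 4, 5, 6 and 7 and the D member in groups 1 and 3. The A member was highest in none. As a share of consensus regions, all chromosomes thus carried gained-lost regions at similar rates, with a modest lean to B. Other shoot apex losses also leaned to B as a sub-genome. Per length the chromosomes differed more, from 0.188 regions per Mb on 1B to 0.422 on 1D. Chromosome 1B also had the fewest consensus regions, 9310, against 13411 on 1D. As a share of consensus regions, however, the lowest value was on 1A and not on 1B. On 1B the first gained-lost region lay near the start and was followed by a long stretch with none. The number of consensus regions in that stretch is not given here. Whether the gap is particular to gained-lost regions was therefore not tested, and neither was its cause.

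**Figure D5:**
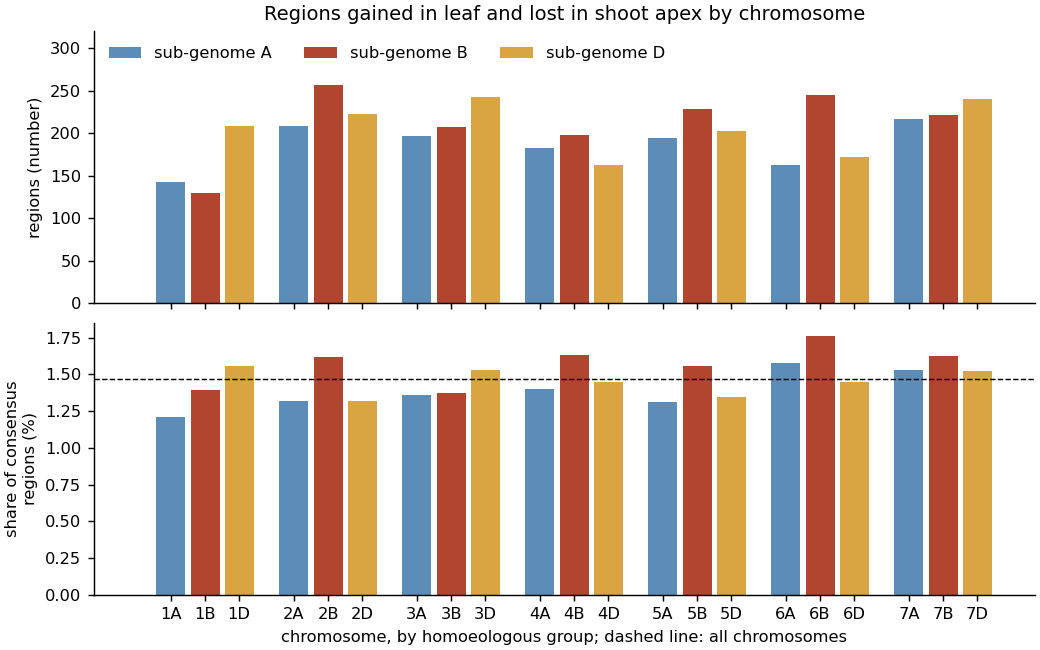
Number of gained-lost regions on each chromosome (upper) and their share of that chromosome's consensus regions in percent (lower), coloured by sub-genome. The number ran from 130 on 1B to 257 on 2B, and the dashed line marks the share over all chromosomes, 1.47%.

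Gained-lost regions lay mostly alone but were closer together in places. The median distance to the nearest other one was 582.2 kb, and 428 regions (10.1%) had one within 10 kb. Of the consensus regions directly next to a gained-lost region, 3.04% were gained-lost themselves, 20.2% were other leaf gains and 14.5% were other shoot apex losses. Over all consensus regions these shares were 1.47%, 17.2% and 9.91%. The opposite class made up 2.45% of these neighbours and 3.17% of all regions. Of 14074 windows of 1 Mb, 3035 held a gained-lost region, 2253 of them a single one and 46 of them 5 or more.

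The 3 windows with the most gained-lost regions lay in the last bin of their chromosomes (positions on IWGSC RefSeq v1.0). The window on 5B from 691000001 to 692000000 held 13 among 158 consensus regions, and none of the 13 had a bud ACR. Its ACR numbers were 98 in leaf and 120 in vernalized leaf, 7 and 50 in axillary bud, and 137 and 10 in shoot apex. The window on 2B from 790000001 to 791000000 held 11 among 87 consensus regions, with 30 and 38 ACRs in leaf, 31 and 38 in axillary bud, and 71 and 30 in shoot apex. The window on 7A from 726000001 to 727000000 held 10 among 105 consensus regions, with 36 and 57 ACRs in leaf, 38 and 47 in axillary bud, and 66 and 38 in shoot apex. In each of these 3 windows the vernalized list was longer in leaf and bud and shorter in shoot apex. The windows were picked for regions with this pattern in leaf and shoot apex, which favours these directions in the 2 tissues. Among the 10 densest windows, the vernalized leaf list was shorter in 3, by -7 ACRs in the window on 7D from 5000001, -6 on 3A from 12000001 and -5 on 3B from 9000001. The 10 densest windows held 89 regions in all, and leaving them out gave an outer share of 46.7%.

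Single sites were chosen by the bases shared between the vernalized leaf and the unvernalized shoot apex ACR, among the 2747 regions where these ACRs shared bases and no unvernalized leaf or vernalized shoot apex ACR lay within 1 kb. The 3 with the most shared bases in each bud state are given. This choice favours wide leaf and shoot apex ACRs and sets no width for bud ACRs, so width comparisons at the sites are descriptions. No annotation of the build of the files was used, so the genes around them are not given. Each had 0 bp in unvernalized leaf and vernalized shoot apex, as the rule requires.

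Among the 1806 such regions with no bud ACR, the site with the most shared bases lay on 3D from 605028505 to 605030242, where ACRs covered 1424 bp in vernalized leaf and 1738 bp in shoot apex. The leaf ACR lay wholly within the shoot apex ACR, and the nearest ACR of unvernalized leaf was 14.1 kb away and that of vernalized shoot apex 57.5 kb. The next lay on 5B from 606949724 to 606951467, with 1681 bp in vernalized leaf and 1243 bp in shoot apex, 1180 bp of them shared. The third lay on 7A from 25878592 to 25879771, with 1097 bp in vernalized leaf, all of them within the 1180 bp of shoot apex. The nearest ACRs of unvernalized leaf and vernalized shoot apex were 16.1 and 17.2 kb from the 5B site but 3.64 and 1.41 kb from the 7A site. All 3 sites were called in vernalized leaf and unvernalized shoot apex only.

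Among the 433 regions called in both bud lists, the site with the most shared bases lay on 1D from 332676139 to 332677785. ACRs covered 1250 bp of it in vernalized leaf, 1352 bp in shoot apex, 1150 bp in axillary bud and 950 bp in vernalized axillary bud. The nearest unvernalized leaf ACR was 106.6 kb away and the nearest vernalized shoot apex ACR 67.6 kb. This site was thus called in the bud under both conditions and stood far from other ACRs of the lists in which it was missing. The second lay on 6D from 422607467 to 422608443, with 950 bp in vernalized leaf, 951 bp in shoot apex, 750 bp in axillary bud and 350 bp in vernalized axillary bud. The third lay on 1D from 140045811 to 140047000, with 1178, 920, 950 and 450 bp covered in the same order. At each of these 3 sites the bud ACR was narrower after vernalization. Over the whole bud lists the median width was also lower after it, 550 bp against 650 bp.

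Among the 253 regions with an unvernalized bud ACR only, in which the bud changed as shoot apex did, the first site lay on 1D from 493224838 to 493226165. It was covered by 1265 bp in vernalized leaf, 1289 bp in shoot apex and 650 bp in axillary bud. The second lay on 7A from 663503613 to 663504764, with 1125, 1111 and 750 bp in these lists, and the third on 6D from 210754842 to 210756074, with 1233, 887 and 1050 bp. In the first 2 sites leaf and shoot apex covered nearly the same length, and in the third the shoot apex ACR was the narrowest.

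Among the 255 regions with a vernalized bud ACR only, in which the bud changed as leaf did, the first site lay on 6A from 616254190 to 616255883. ACRs covered 1368 bp in vernalized leaf, 1558 bp in shoot apex and 450 bp in vernalized axillary bud, and the nearest ACRs of unvernalized leaf and vernalized shoot apex were 84.7 and 83.1 kb away. The second lay on 2B from 332329640 to 332331758, with 1850, 1014 and 450 bp in these lists, and the third on 2A from 751223963 to 751226579, with 1050, 2572 and 350 bp. In all 3 sites the vernalized bud ACR covered less than the leaf or the shoot apex ACR did. The 12 sites lay on 8 chromosomes, 3 of them on 1D.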

How the data were processed

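The authors deposited 1 list of ACRs for each of the 6 tissue and condition groups, which gives positions only, with no score, count or signal. Per the methods of the study and the submitters' processing notes, reads were trimmed with fastp (0.21.0), aligned with Bowtie2 (2.3.5.1) to IWGSC RefSeq v1.0, filtered with SAMtools (1.3.1) and Picard (2.16.0), and called with MACS2 (2.2.6). An ACR is what remained of a peak after windows of 150 bp, each sharing 50 bp with the next, had been screened for how densely Tn5 had cut. Windows no more than 200 bp apart were then joined (bedtools), and signal also present in input or matching the chloroplast was taken out. The sources used here do not state whether replicates were pooled. AK58 reads were placed on a reference of another cultivar, Chinese Spring, and reads of mapping quality under 10 were removed, so regions that differ between the cultivars or are repeated can be missed. The bin filter limits the widths an ACR can take.

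ACRs were merged in Python 3.11.15 with numpy 2.4.6 and scipy 1.17.1. No ACR was removed. Starts are printed 1-based. Shares have 95% Wilson intervals. A region has the position of its midpoint. A region counted as just outside the rule when its excluded ACR shared at most 50 bp with ACRs of other lists. Overlap, merging and the rule were tested on simulated data. The regions, comparison classes and sites were chosen with earlier results of these data known. Sites to name were, per bud state, the 3 with the most bases shared, as given in the text, and the 3 windows of 1 Mb with the most regions. Alternatives were another merging distance, minimum width, list size, definition of presence or absence, covered length, narrower outer bins, and leaving out dense windows or chromosome 2B. Using the central 200 bp of each ACR was added after the data were examined. No genome of the build was used, so no sequence, GC content or gene context is given.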

Additional observations from a re-analysis of the deposited data

Results flagged for a closer look

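The number of ACRs within 10 kb of gained-lost regions, the regions themselves left out, moved in different directions in the tissues. The mean per region in the vernalized list minus that in the unvernalized list was 0.205 ACRs for leaf, 0.0910 for axillary bud and -0.245 for shoot apex. Whether the tissues differ was not tested, as each group had 1 list. In the 3 windows of 1 Mb with the most gained-lost regions the vernalized leaf list was longer and the vernalized shoot apex list shorter. The differences were 22 ACRs in leaf and -127 in shoot apex on 5B, 8 and -41 on 2B, and 21 and -28 on 7A. These were not tested either, and the windows were picked for regions with this pattern.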

How the results depend on the processing

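With 1 list per group no replicate could be left out. No paired analysis was possible because each group had a single list, which left no replicates to pair. The number of gained-lost regions ranged from 1519 to 6425 over 9 alternatives. It was within 1.5 times 4244 in 5 of them. Keeping ACRs of at least 500 bp gave 1519 regions, of which 47.5% had an unvernalized and 44.4% a vernalized bud ACR (28.5% and 29.9% as reported), with median widths of 750 bp in vernalized leaf and 724 bp in shoot apex. This set holds wide ACRs by construction. The central 200 bp of each ACR gave 6425 regions, with bud shares of 22.9% and 26.1%, 35.8% on D and 45.9% in the outer bins. Requiring no unvernalized leaf or vernalized shoot apex ACR within 1 kb left 2822 regions, with bud shares of 26.7% and 26.6% and 32.7% on D. A reciprocal overlap of 50% left 2049 regions, with 26.4% in unvernalized bud, 49.98% in the outer bins and median widths of 376.5 bp and 350 bp. Lists of equal size, 126351 ACRs each, gave bud shares of 23.7% and 24.7% and a median of 346 bp in shoot apex. Requiring leaf and shoot apex ACRs to share a base gave bud shares of 26.97% and 28.5%. By covered length the bud shares were 36.9% and 38.3%. Merging up to 200 bp apart gave median widths of 367 bp and 319 bp. Leaving out chromosome 2B gave 36.4% on D, since a B chromosome was removed. With outer bins of 5% at each end the outer share was 32.5%. Except where given, causes were not tested. As reported, and with regions built from ACRs merged up to 200 bp apart, of at least 500 bp, in lists of equal size or cut to the central 200 bp, the share with no bud ACR was higher in gained-lost regions than in the opposite class, and so was the outer share.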
